A study of Rattus norvegicus with 12 samples.

Results

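The mevalonate pathway enzymes that lead from acetyl-CoA to farnesyl diphosphate were followed in rat liver cells cultured for 18 hours without or with arginine. Of 7 genes chosen by symbol, Acat2, Hmgcs1, Mvk, Pmvk, Mvd, Idi1 and Fdps, 6 were represented by 9 probe sets that the array annotation ties to exactly 1 gene symbol, of 12777 such probe sets and 15923 on the array. Hmgcs1 had no such probe set, so that its expression was not analysed here and only its promoter window was read. The 4 groups were arginine-deficient tumor cells, arginine-sufficient tumor cells, arginine-deficient normal cells and arginine-sufficient normal cells, with 3 cultures and 3 RAE230A arrays in each. Tumor cells were GP7TB, a tumorigenic line derived by chemical transformation from the normal line, and normal cells were WB-F344, a diploid epithelial line of hepatic origin (adult male rat, Fischer-344 strain), so that each cell type is a single line. All 12 cultures were grown in a custom Chee's Essential Medium with 5% fetal bovine serum, and arginine was present at 0.168 g/l or left out. The serum was not dialyzed, and the study describes the condition as an amino acid imbalance short of complete arginine starvation. Cells called without arginine here are those to whose medium none was added. Each arginine-deficient culture had an arginine-sufficient partner, in 3 paired experiments per cell line.

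Mevalonate is the precursor of sterols and of the isoprenoids that anchor proteins to membranes and build ubiquinone and dolichol. Acat2, the cytosolic acetoacetyl-CoA thiolase, joins acetyl-CoA units, Hmgcs1 makes HMG-CoA, Mvk and Pmvk phosphorylate mevalonate in sequence, Mvd decarboxylates the product to isopentenyl diphosphate, Idi1 isomerizes it to dimethylallyl diphosphate, and Fdps condenses these units to farnesyl diphosphate, where the sterol and isoprenoid branches part. The step from HMG-CoA to mevalonate is not covered by the chosen genes. In liver, transcription of these genes is known to rise when cell sterol is low, through the SREBP factors, which act at promoters together with NF-Y (bound at CCAAT boxes) and Sp1 (bound at GC boxes).

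The promoter windows of 4 members whose signals did not overlap between arginine-deficient and arginine-sufficient normal cells are shown because they are the sequences on which SREBP and its partners could act. They are RefSeq sequences of build GRCr8, 250 bases before to 50 after the annotated start, for Fdps at chr2:176804767-176805066 (minus strand), Mvd at chr19:67414925-67415224 (minus strand), Idi1 at chr17:66547475-66547774 (minus strand) and Acat2 at chr1:50100590-50100889 (plus strand). Capitals mark CCAAT on either strand (ATTGG where it runs the other way) and, in Fdps, the SRE-3 element described for this promoter in the rat.
Fdps: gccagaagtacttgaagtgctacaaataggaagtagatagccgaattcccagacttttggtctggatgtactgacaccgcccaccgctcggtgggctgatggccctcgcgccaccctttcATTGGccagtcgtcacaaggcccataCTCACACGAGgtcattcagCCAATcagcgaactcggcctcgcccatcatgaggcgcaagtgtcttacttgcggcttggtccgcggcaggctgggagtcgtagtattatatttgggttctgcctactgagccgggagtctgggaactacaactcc
Mvd: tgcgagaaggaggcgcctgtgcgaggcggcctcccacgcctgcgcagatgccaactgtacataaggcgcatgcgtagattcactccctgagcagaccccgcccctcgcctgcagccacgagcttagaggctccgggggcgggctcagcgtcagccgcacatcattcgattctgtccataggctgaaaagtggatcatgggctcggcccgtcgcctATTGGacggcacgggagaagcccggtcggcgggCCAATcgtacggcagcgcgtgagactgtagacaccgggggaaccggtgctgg
Idi1: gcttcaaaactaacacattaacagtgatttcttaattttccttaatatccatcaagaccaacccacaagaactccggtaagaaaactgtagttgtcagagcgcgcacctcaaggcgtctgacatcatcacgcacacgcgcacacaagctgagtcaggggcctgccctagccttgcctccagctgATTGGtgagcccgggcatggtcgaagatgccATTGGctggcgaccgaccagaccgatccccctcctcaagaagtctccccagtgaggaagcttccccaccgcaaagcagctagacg
Acat2: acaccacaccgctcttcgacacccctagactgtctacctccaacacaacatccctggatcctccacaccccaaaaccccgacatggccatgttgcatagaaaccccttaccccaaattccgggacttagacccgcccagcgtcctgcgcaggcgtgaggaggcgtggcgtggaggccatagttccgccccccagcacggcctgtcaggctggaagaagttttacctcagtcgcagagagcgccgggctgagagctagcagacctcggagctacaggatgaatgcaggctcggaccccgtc

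RefSeq windows were found for 6 of the 7 genes, Pmvk being the exception. CCAAT occurred in 5 of the 6 (Fdps, Mvd, Idi1, Mvk and Hmgcs1), with 5 matches in Mvk and 2 in each of the others, against 37.5% of 33469 windows of all genes. Acat2 alone had none. The GC box GGGCGG occurred in 5 of the 6, Idi1 being without it, against 33.1% of all windows. The SRE-3 letters, those in the longest run of capitals in Fdps, searched for after the windows had been seen, began at position -104 of Fdps, between CCAAT matches at -130 and -85, and were found in 0.0538% of all windows and in no other member. The classical sterol regulatory element TCACNCCAC (1.12% of all windows) and the E-box CACGTG (6.42%) occurred in none of the 6, on either strand, which says only that these letters are not in these windows.

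Signals are Microarray Suite 5.0 intensities on a linear scale, scaled by the authors so that the trimmed mean of each array was 500.1 to 500.2, and compare the same probe set across arrays only. Tests were limited to probe sets that reached the expressed threshold, the lower edge of the top 54% of signals on an array (146 to 191), on 3 or more of the 12 arrays. These were 9745 probe sets, among them 8 of the 9 members. The exception was 1375401_at of Mvk, with signals of 5.5 to 10.8 in arginine-deficient and 5.6 to 11.0 in arginine-sufficient tumor cells, and of 4.6 to 8.9 and 6.7 to 6.9 in arginine-deficient and arginine-sufficient normal cells, never near the threshold. Log2 signals of arrays of the same group correlated at 0.928 to 0.967 over the tested probe sets. Of 7 hepatocyte markers measured, 0 were above the threshold in all 3 arrays of any group. Of 6 epithelial and biliary markers, Krt8 and Krt7 were above it in all arrays and the other 4 (Krt18, Krt19, Epcam and Cdh1) in none. Of 6 mesenchymal and stellate markers, 3 (Vim, Col1a1 and Acta2) were above it in all arrays, Col1a2 in those of the normal line alone and Pdgfrb in none. Des was above it in 1 of 3 arrays of each tumor group, 2 of 3 arginine-deficient and 3 of 3 arginine-sufficient normal arrays. Levels differed by line. With arginine, tumor and normal means were 484 and 21485 for Col1a1, 291 and 5845 for Krt7, and 8744 and 5936 for Krt8. Of 3 macrophage and blood markers Cd14 was above it in all arrays, and of 3 endothelial markers 0 were in any. The response of known amino acid-sensitive genes was present in both lines, as all 8 measured genes of that list had higher means without arginine. In bulk RNA, fewer cells of a type and less RNA per cell cannot be told apart.

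Signals of the pathway were lower without arginine in normal cells, with 5 probe sets clear of overlap. In tumor cells the mean log2 changes ran from -1.82 for Idi1 1388872_at to 0.54 for Mvd, both resting in part on signals under the expressed threshold. In normal cells all 8 tested probe sets had lower mean log2 signals without arginine, with a median log2 change of -1.50 against -0.04 over all 9745 probe sets. Mvd, Acat2, both Idi1 probe sets and Fdps were lower in each arginine-deficient culture than in every arginine-sufficient one, which makes 5 of 8 members without overlap against 7.76% of all tested probe sets. With 1 mean per group (limma, Benjamini-Hochberg adjustment over 9745 probe sets), Mvd and Acat2 passed an adjusted p of 0.05, 2 of 8 members against 0.0308% of all probe sets called lower. With the experiment as a block, as the paired cultures allow, 5 of 8 passed (Mvd, Acat2, both Idi1 and Fdps), against 1.03%. With each signal raised to at least the expressed threshold of its array, 3 of 8 passed (Acat2 and both Idi1), against 0.0616%. In tumor cells 6 of the 8 were below 0, with a median of -0.22 against -0.05 over all probe sets. There 0 of 8 passed (limma), against 0.944% called lower, and 1 of 8, Idi1 1388872_at, passed with the block, against 6.18%. At an unadjusted p under 0.05 there was also 1 of 8, against 8.79%. The groups did not overlap for 2 of 8 in tumor cells, Pmvk and Idi1 1388872_at, against 13.6%.

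**Figure D1:**
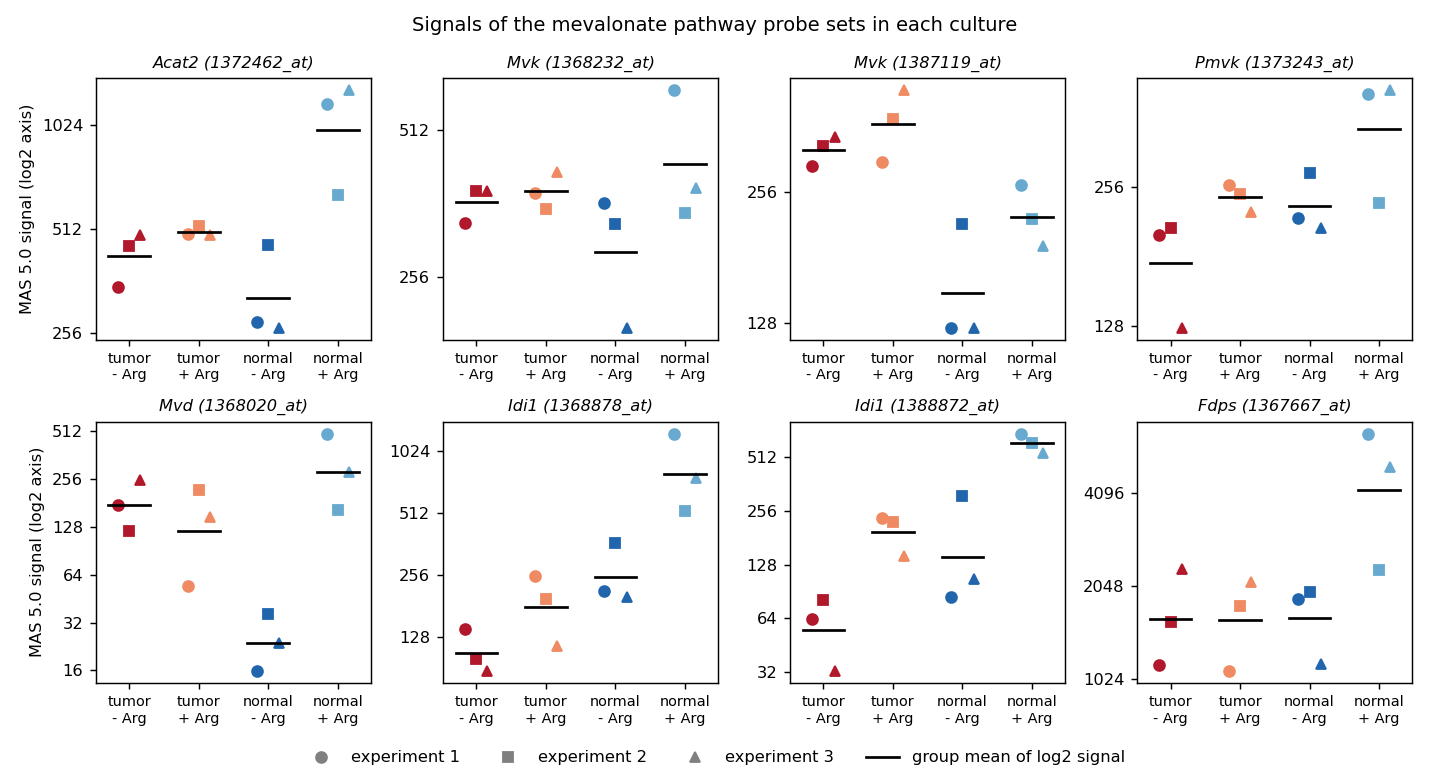
MAS 5.0 signal (log2 axis) of the 8 tested probe sets in each of the 12 cultures, with symbols for the 3 experiments of a cell line and bars for the group mean of the log2 signal. Arginine-deficient normal cells lie below arginine-sufficient normal cells without overlap for Acat2, Mvd, both Idi1 probe sets and Fdps, while the tumor groups overlap for all but Pmvk and Idi1 1388872_at.

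Acat2, which supplies acetoacetyl-CoA at the entry of the pathway, had signals of 349.2, 458.8 and 493.3 in arginine-deficient tumor cells (experiments 1 to 3, the order used throughout) and of 494.0, 524.2 and 491.5 in arginine-sufficient tumor cells. In normal cells its signals were 275.2, 460.6 and 265.6 without arginine, against 1180.9, 641.6 and 1290.0 with it. The tumor groups overlapped, since the highest deficient culture reached the sufficient ones, whereas the normal groups stood apart. The log2 change was -0.23 ± 0.28 in tumor cells (SE, n = 3 per group; limma adjusted p = 0.756; 95% interval -0.82 to 0.36) and -1.62 ± 0.28 in normal cells (adjusted p = 0.0439, or 0.0160 with the experiment as a block). The normal cells' call was lost when any of 9 of the 12 arrays was left out (adjusted p up to 0.212) and held without cultures 3, 4 or 8 (as low as 0.00547 without culture 3). By mean signal the order was arginine-deficient normal (334 ± 110, SD), arginine-deficient tumor (434 ± 75.2), arginine-sufficient tumor (503 ± 18.2) and arginine-sufficient normal cells (1037.5 ± 347). Only the last step in that order was free of overlap.

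The kinases had the smallest changes of the members in normal cells. Mvk, which phosphorylates mevalonate, was read by 2 tested probe sets. With 1368232_at its signals were 331.6, 384.7 and 384.2 in arginine-deficient and 381.5, 352.9 and 421.1 in arginine-sufficient tumor cells. In normal cells they were 363.6, 329.0 and 202.1 without arginine and 618.0, 347.1 and 389.7 with it. The groups overlapped in both lines, the change being -0.07 ± 0.25 in tumor and -0.60 ± 0.25 in normal cells (limma adjusted p = 0.943 and 0.474). With 1387119_at the changes were similar, -0.20 ± 0.25 in tumor and -0.59 ± 0.25 in normal cells (adjusted p = 0.765 and 0.473), but the lines differed in level. This probe set had 295.1, 327.0 and 343.2 in arginine-deficient and 301.4, 379.3 and 441.0 in arginine-sufficient tumor cells, against 124.6, 216.1 and 124.6 in arginine-deficient and 266.5, 222.2 and 192.6 in arginine-sufficient normal cells. With signals raised to the threshold the normal change stayed at -0.60 for 1368232_at. It was -0.29 (limma adjusted p = 0.674) for 1387119_at, which reached the threshold in only 1 of 3 arginine-deficient normal arrays. All 6 tumor cultures were above all 6 normal ones, a separation that 1368232_at did not show. The 2 probe sets thus disagreed on the difference between lines, and why was not tested.

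Pmvk, the second kinase, had signals of 201.4, 208.7 and 127.2 in arginine-deficient tumor cells and 258.0, 247.1 and 225.1 in arginine-sufficient tumor cells. These did not overlap, although the change of -0.47 ± 0.26 missed the threshold (limma adjusted p = 0.425; interval -1.04 to 0.09). In normal cells its signals were 218.6, 273.7 and 208.6 without arginine and 405.5, 236.2 and 412.4 with it, with overlap in experiment 2 and a difference of -0.55 ± 0.26 (adjusted p = 0.538, or 0.257 with the block). Pmvk was the member whose responses were closest in the 2 lines, differing by 0.08 (tumor minus normal; interval -0.72 to 0.88).

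Mvd, the decarboxylase that yields isopentenyl diphosphate, was under the expressed threshold in normal cells without arginine. Its signals there were 15.9, 36.0 and 23.8 without arginine, against 496.2, 164.5 and 282.5 with it. No arginine-deficient normal culture reached the threshold, so that the fitted change of -3.58 ± 0.55 (limma adjusted p = 0.0213, or 0.00854 with the block) rests on signals too low to give a size. Set against the threshold, Mvd was at least 1.68-fold higher in arginine-sufficient normal cells, and with all signals raised to the threshold the change was -0.77 (adjusted p = 0.393). The call also missed 0.05 without culture 1, 2, 5 or 6 of the normal cells (adjusted p of 0.108 to 0.135). In tumor cells Mvd went no single way. Its signals were 176.7, 120.9 and 251.9 without arginine and 54.8, 218.9 and 147.3 with it, higher in experiments 1 and 3 and lower in experiment 2, with a mean change of 0.54 ± 0.55 (adjusted p = 0.701; interval -0.64 to 1.71). Only 2 of 3 arginine-deficient and 1 of 3 arginine-sufficient tumor arrays reached the threshold. With signals raised to it the tumor change was 0.08 (limma adjusted p = 0.936). Both arrays of tumor experiment 2 came from cells recorded as handled without trypsin, unlike those of experiments 1 and 3. Chip lot also differed within experiments 1 and 2: deficient culture 8 and sufficient culture 9 were on lot 3, their partners on lot 4. Within each of these experiments Mvd was higher on lot 3, at 176.7 against 54.8 and 218.9 against 120.9. Experiment 3, all on lot 4, had 251.9 without arginine and 147.3 with it. The part of handling and of chip lot in the result was not tested.

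Idi1, the isomerase, had its lower mean signals without arginine in both lines and with both probe sets. With 1368878_at its signals were 140.6, 100.3 and 87.8 in arginine-deficient and 252.3, 194.8 and 115.6 in arginine-sufficient tumor cells, overlapping by the lowest sufficient culture. In normal cells they were 214.2, 366.6 and 199.3 without arginine and 1242.8, 526.0 and 753.8 with it, apart in every culture. The change was -0.73 ± 0.36 in tumor cells (limma adjusted p = 0.365) and -1.66 ± 0.36 in normal cells (adjusted p = 0.115, 0.0203 with the block, or 0.0434 with signals raised to the threshold).

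The other Idi1 probe set, 1388872_at, gave 63.7, 81.3 and 32.5 in arginine-deficient tumor cells, against 232.4, 222.0 and 142.5 in arginine-sufficient tumor cells. In normal cells it gave 84.6, 310.4 and 106.1 without arginine, against 694.9, 616.3 and 537.0 with it. Neither line's groups overlapped. The change was -1.82 ± 0.45 in tumor cells (limma adjusted p = 0.0569, or 0.00630 with the block) and -2.12 ± 0.45 in normal cells (adjusted p = 0.115, 0.0104 with the block, or 0.0169 for a change of -1.56 with signals raised to the threshold). Arginine-deficient tumor cells were under the expressed threshold in all 3 arrays for both Idi1 probe sets, so that against the threshold the arginine-sufficient tumor cells were at least 1.23-fold (1388872_at) and 1.13-fold (1368878_at) higher, and with signals raised to the threshold the tumor change of 1388872_at was -0.35 (adjusted p = 0.537). The 2 probe sets correlated at 0.90 over the 12 arrays, and both were highest in arginine-sufficient normal and lowest in arginine-deficient tumor cells.

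Fdps, which makes farnesyl diphosphate, was at one level in both tumor groups and stood apart in normal cells. Its signals were 1131.0, 1559.3 and 2322.2 in arginine-deficient and 1084.9, 1762.6 and 2098.7 in arginine-sufficient tumor cells. In normal cells they were 1857.0, 1956.7 and 1144.9 without arginine and 6382.0, 2303.5 and 4954.0 with it. The tumor cultures followed their experiment and not arginine, with ratios of arginine-deficient to arginine-sufficient signal of 1.04, 0.885 and 1.11, whereas in normal cells the ratios were 0.291, 0.849 and 0.231. The change was 0.01 ± 0.38 in tumor cells (limma adjusted p = 0.995; interval -0.80 to 0.82) and -1.38 ± 0.38 in normal cells (adjusted p = 0.252, or 0.0241 with the block). Mean signals of arginine-deficient tumor (1671 ± 603, SD), arginine-sufficient tumor (1649 ± 516) and arginine-deficient normal cells (1653 ± 443) lay within 22 units of each other and well inside their spread, and arginine-sufficient normal cells stood at 4546.5 ± 2070.

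In normal cells the response of every member was closest to 0 in experiment 2. Within it the log2 ratio of arginine-deficient to arginine-sufficient signal had a median of -0.36 over the 8 members and 1 of 8 was at least 2-fold lower, against -1.94 with 6 of 8 in experiment 1 and -2.02 with 5 of 8 in experiment 3. Over all tested probe sets 4.13%, 1.33% and 2.76% were at least 2-fold lower in experiments 1 to 3. The amino acid response was smallest in the same experiment, with a median log2 ratio of 0.66, against 1.95 and 1.25 in experiments 1 and 3. The arginine-sufficient culture of experiment 2 (culture 3) was the only array of its scan day and of its chip lot, and the part of this in the result was not tested. Scan days 1 and 3 held both conditions. Day 1 set cultures 2 and 4, of experiments 1 and 2, against culture 1 of experiment 1, and day 3 set 1 array against 1. Within these days the change in normal cells was -1.73 and -2.28 for Acat2, -2.15 and -1.92 for Idi1 1368878_at and -1.74 and -2.11 for Fdps. Idi1 1388872_at was at -2.10 and -2.34, but in cultures 2 and 6 it was under the threshold, so that these values give no firm size. Mvd, under the threshold in every arginine-deficient array, has no size within a day. With scan day as a block, 4 of the 8 members were called lower in normal cells (Acat2, Mvd, Idi1 1368878_at and Fdps), against 0.113% of all probe sets. With chip lot as a block, which also sets culture 3 apart, 2 of 8 were called (Acat2 and Mvd), against 0.0513%, and Fdps and Idi1 1368878_at were at adjusted p of 0.0806 and 0.0821. Without culture 3 the changes were -1.93 for Acat2, -1.95 and -2.12 for the Idi1 probe sets and -1.81 for Fdps (limma adjusted p = 0.00547, 0.0615, 0.155 and 0.0560), and Mvd stayed called (0.0149). In tumor cells, 2 chip lots held both conditions. Lot 3 set culture 8 of experiment 1 against culture 9 of experiment 2, and lot 4 set 2 arrays against 2. The comparisons within lots thus cross experiments and handling. Their changes were -0.64 and 0.33 for Fdps and -0.31 and 0.96 for Mvd, which had signals under the threshold in lot 4. Idi1 1388872_at was at -1.80 and -1.82 with every arginine-deficient array under the threshold, which gives no size.

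**Figure D2:**
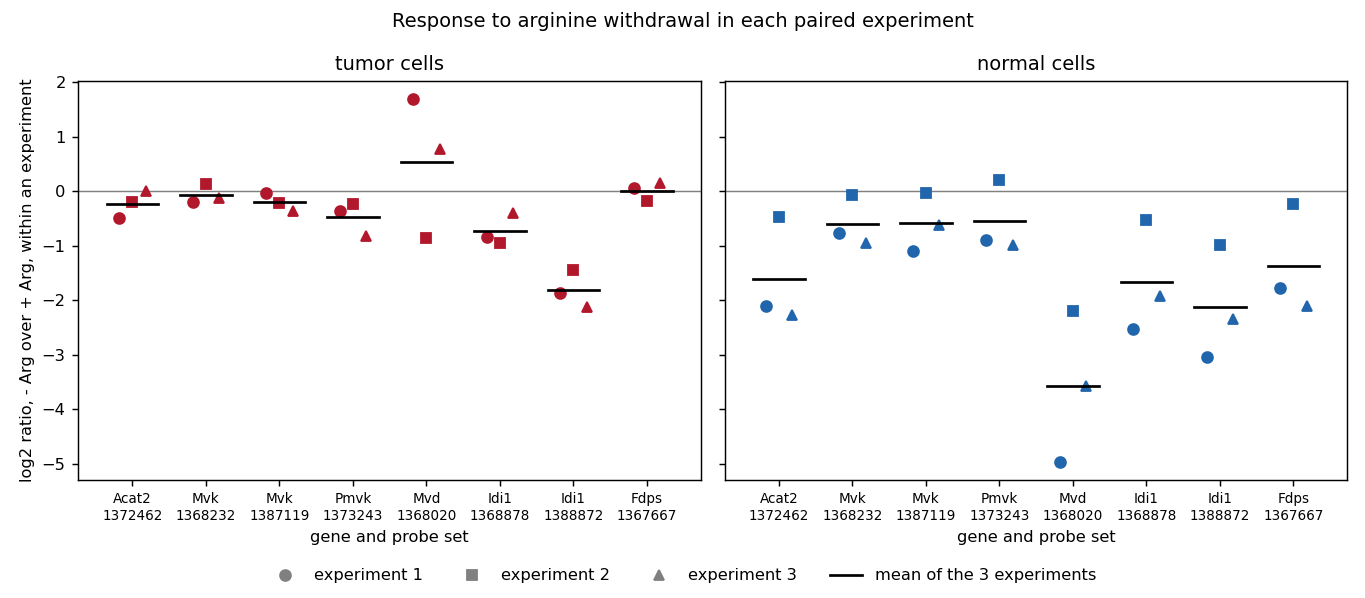
Log2 ratio of arginine-deficient to arginine-sufficient signal within each of the 3 paired experiments (symbols) and its mean (bars), for the 8 tested probe sets in tumor and normal cells. In normal cells every ratio but that of Pmvk in experiment 2 is below 0 and experiment 2 lies closest to 0. In tumor cells only Idi1 1388872_at is more than 2-fold lower in every experiment, with all its arginine-deficient signals under the expressed threshold.

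A rule on ratios, shaped after the all-against-all comparison used in the study, asked for a 2-fold or larger difference of the same sign in 6 or more of the 9 pairings of a deficient with a sufficient array. Among the tested probe sets, without the study's present calls, it was met by 1 of 8 members in tumor cells, Idi1 1388872_at with 8 of 9, against 1.4% of all tested probe sets lower. In normal cells it was met by 5 of 8, against 0.359%: Mvd with 9 of 9, Acat2 and Idi1 1368878_at with 8 each, and Idi1 1388872_at and Fdps with 7 each. The other 3 probe sets, both of Mvk and that of Pmvk, had 0 to 2 such ratios in normal cells. With signals raised to the expressed threshold 4 of 8 met it in normal cells, Mvd falling short, and 0 of 8 in tumor cells.

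Averaged over both lines, the effect of arginine withdrawal was below 0 for all 8 members, with a median of -0.80 against -0.05 over all probe sets. It passed for 3 of 8, against 1.35% called lower. These were Idi1 1388872_at (-1.97 ± 0.32, limma adjusted p = 0.00493), Acat2 (-0.92 ± 0.19, adjusted p = 0.0241) and Idi1 1368878_at (-1.20 ± 0.26, adjusted p = 0.0268). Mvd (-1.52 ± 0.39) missed it at 0.0521, and with the block Mvd and Fdps passed as well, 5 of 8 against 8.58%. Such a mean does not require a response in each line. In tumor cells the change was 0.54 for Mvd, 0.01 for Fdps and -0.23 for Acat2, against -3.58, -1.38 and -1.62 in normal cells. For these genes the mean effect thus does not show a response shared by the lines, whereas both Idi1 probe sets were below 0 in each line. With signals raised to the threshold the mean effect was -0.35 for Mvd (adjusted p = 0.382) and -0.96 for Idi1 1388872_at (0.00712). Idi1 1388872_at passed whichever array was left out, at an adjusted p of at most 0.0209. Acat2 missed the threshold without tumor culture 9 or 10 or normal culture 1, 2, 5 or 6 (adjusted p up to 0.0709), and Idi1 1368878_at without any of the same 6 or tumor culture 7 or 12 (up to 0.0762).

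The difference between the 2 responses was tested directly. All 8 members responded less, or more positively, in tumor than in normal cells, with a median difference of 0.73 on the log2 scale (tumor minus normal) against -0.01 over all probe sets. None of the 8 passed (limma adjusted p from 0.589), against 0% of all probe sets called in either direction, and 3 of 8 had an unadjusted p under 0.05, against 2.75% of all probe sets. These were Mvd at 4.11 ± 0.77 (unadjusted p = 0.000121, adjusted p = 0.589, or 0.0691 with the block), Acat2 at 1.39 ± 0.39 (0.00319, 0.824 and 0.166) and Fdps at 1.39 ± 0.53 (0.0213, 0.824 and 0.154). With Mvd signals raised to the threshold its difference was 0.85 (adjusted p = 0.849). For Idi1 the difference was 0.93 (1368878_at, interval -0.18 to 2.03) and 0.31 (1388872_at, interval -1.06 to 1.67), and for Mvk 0.53 (-0.24 to 1.30) and 0.39 (-0.37 to 1.14).

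The lines themselves were compared at each arginine level. All tumor arrays were scanned on a day of their own, so that cell line and scan day cannot be told apart. Without arginine, 2 of 8 members were called lower in tumor than in normal cells, against 21.2% of all probe sets, and 2 of 8 higher, against 19.5%, which leaves these counts near the background. Lower were Idi1 1368878_at (-1.22 ± 0.36, limma adjusted p = 0.0164) and Idi1 1388872_at (-1.35 ± 0.45, adjusted p = 0.0278). Higher were Mvd (2.88 ± 0.55, adjusted p = 0.00102) and Mvk 1387119_at (1.10 ± 0.25, adjusted p = 0.00339). Of these 4, Mvk 1387119_at alone stayed called with signals raised to the threshold (0.81, adjusted p = 0.00424), since Mvd in normal and Idi1 in tumor cells were then at it. Against the threshold, the mean of Mvd was at least 1.04-fold higher in tumor cells and that of Idi1 1368878_at at least 1.59-fold higher in normal cells. No bound above 1 was had for Idi1 1388872_at. For Mvd only 2 of 3 arginine-deficient tumor arrays reached the threshold. With signals raised to it the differences were 0.20 for Mvd and -0.67 for Idi1 1368878_at (limma adjusted p = 0.615 and 0.0959). Both Idi1 calls were lost without tumor culture 12 or normal culture 4, and that of 1368878_at without tumor culture 10 as well (adjusted p up to 0.0703 for 1368878_at and 0.124 for 1388872_at). Fdps did not differ detectably (-0.01 ± 0.38, interval -0.82 to 0.80), nor did Acat2 (0.41 ± 0.28, n = 3 per group).

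With arginine, 4 of 8 members were called lower in tumor cells, against 18.1% of all probe sets, and 1 of 8 higher, against 16.4%. Lower were Idi1 1368878_at (-2.15 ± 0.36, limma adjusted p = 0.000536), Idi1 1388872_at (-1.66 ± 0.45, adjusted p = 0.0115), Fdps (-1.39 ± 0.38, adjusted p = 0.0113) and Acat2 (-0.98 ± 0.28, adjusted p = 0.0139). Higher was Mvk 1387119_at (0.71 ± 0.25, adjusted p = 0.0395). Mvd was at -1.24 ± 0.55 (adjusted p = 0.0976). Idi1 1368878_at stayed called whichever array was left out. The other calls were lost without normal culture 1 (Fdps and Acat2), normal culture 5 (Acat2 and Mvk), normal culture 3 (Mvk), tumor culture 9 or 10 (Mvk) or tumor culture 11 (Mvk and Idi1 1388872_at), at adjusted p of up to 0.147. The groups did not overlap for the same 4 lower members and the 1 higher one, against 24.7% and 24.5% of all probe sets. These contrasts share their arrays with the arginine contrasts, so that arginine-sufficient normal cells enter both.

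**Figure D3:**
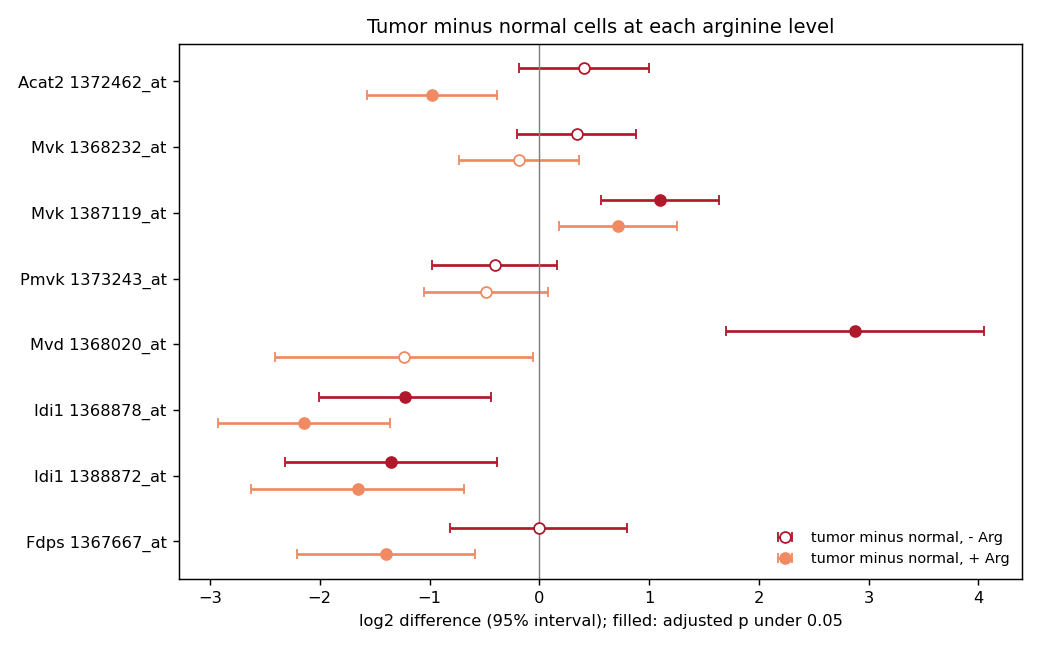
Log2 difference between tumor and normal cells (points) with 95% interval for each tested probe set, without arginine (dark) and with arginine (light), filled where the limma adjusted p is under 0.05. Fdps and Acat2 are below 0 with arginine and near or above 0 without it, Mvd is at -1.24 with arginine and 2.88 without it (where the normal cells were under the expressed threshold), and both Idi1 probe sets are below 0 at both levels.

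Neighbouring steps were read from lists that had been chosen with earlier results of these data known, using the probe set of highest mean signal per gene. Of the sterol branch that follows Fdps, 10 of 12 genes were tested. In tumor cells their median log2 change was -0.41 and in normal cells -0.98, with 0 of 10 called in either line (limma) but 1 of 10 in tumor and 7 of 10 in normal cells called lower with the experiment as a block, against 6.18% and 1.03% of all probe sets. In the mean of both lines all 10 were below 0, 4 were called lower (1.35% of all probe sets) and, with the block, 8 (8.58%). Among them Dhcr7, the last reductase of cholesterol synthesis, averaged 265 in arginine-deficient and 477 in arginine-sufficient tumor cells, and 115 in arginine-deficient and 331 in arginine-sufficient normal cells (mean effect -1.14 ± 0.22, adjusted p = 0.0155). The mean of 115 lay under the expressed threshold (146 to 191), so that this effect has no firm size. Cyp51, the lanosterol demethylase, Ebp, the sterol isomerase, and Fdft1, the squalene synthase that takes farnesyl diphosphate into this branch, had mean effects of -0.80 ± 0.18, -0.79 ± 0.14 and -0.75 ± 0.18 (adjusted p = 0.0331, 0.0100 and 0.0406). Sc5d, a desaturase of the late steps, was at -0.54 ± 0.17 and passed with the block alone (0.0151).

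In the isoprenoid branch, farnesyl and geranylgeranyl groups are made and attached to proteins. None of its 10 tested genes (of 14) was called under arginine withdrawal, with or without the block, and the median of the list was -0.20 in tumor cells and 0.07 in those of the normal line. Of the SREBP control list, all 7 genes were tested and Insig1, a sterol-responsive retention protein of the SREBP complex, was the one called lower. Insig1 averaged 223 in arginine-deficient and 471 in arginine-sufficient tumor cells, and 865 in arginine-deficient and 2325 in arginine-sufficient normal cells (mean effect -1.25 ± 0.28, limma adjusted p = 0.0316). Among the acetyl-CoA and thiolase relatives, 7 of 11 were tested and Hadhb, the mitochondrial thiolase subunit of fatty acid oxidation, was the one called and was higher, at 3688 in arginine-deficient and 1891 in arginine-sufficient tumor cells (0.97 ± 0.17, adjusted p = 0.0164) and 2108 in arginine-deficient and 1442 in arginine-sufficient normal cells (0.53 ± 0.17, adjusted p = 0.325). The median of the amino acid response was above 0 in every experiment, where that of the members was below 0. Trib3, a stress-induced pseudokinase, averaged 3893 in arginine-deficient and 467 in arginine-sufficient tumor cells and 2496 in arginine-deficient and 502 in arginine-sufficient normal cells (3.07 ± 0.27 and 2.22 ± 0.27, adjusted p = 0.000103 and 0.00371). In all, 6 of 8 of that list were called higher in tumor cells (0.965% of all probe sets) and 3 of 8 in normal cells (0.133%), and 7 of 8 in the mean of both (1.6%), among them Nupr1, Chac1, Asns and Atf4.

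**Figure D4:**
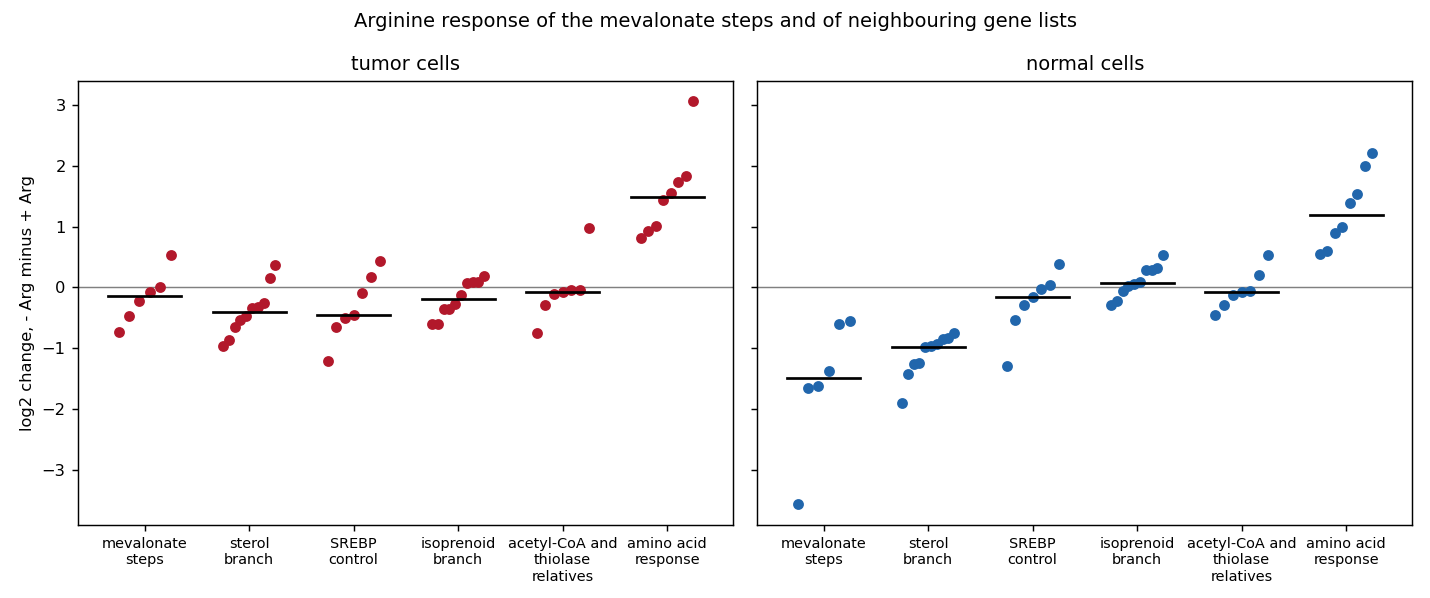
Log2 change without arginine (arginine-deficient minus arginine-sufficient) of single genes (points) and their median (bars) in tumor and normal cells, for the 6 mevalonate genes and 5 neighbouring lists, 1 probe set per gene. The mevalonate genes have a median of -0.15 in tumor and -1.50 in normal cells, next to -0.41 and -0.98 for the sterol branch, and the amino acid response lies above 0 in both.

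The members varied together only in part. Over the 12 arrays, the 26 pairs of probe sets from different member genes correlated with a median r of 0.61 (-0.35 to 0.87), and after removal of the 4 group means with a median of 0.44 (-0.14 to 0.75), as a description over arrays that share groups and experiments. Against the mean of the other members, Acat2 had the highest r (0.95), followed by Fdps (0.85), and Mvd the lowest (0.53). The tested genes other than members that were closest to the mean profile of the 6 members were Acly (r = 0.92), Pdp2 (0.90), Mon1a (0.88), Ebp (0.87) and Uxs1 (0.85). After removal of the group means the closest were Abcc6 (0.93), Acly (0.93), Cilk1 (0.90), Rxra (0.90) and Nipsnap2 (0.89). Acly, the cytosolic enzyme that releases acetyl-CoA from citrate, stood in both sets, and without arginine its signal differed by -0.12 ± 0.17 in tumor cells and by -0.45 ± 0.17 in normal cells (limma adjusted p = 0.819 and 0.439).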

How the data were processed

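RNA of 12 cultures was hybridized to 1 RAE230A array each. The deposited intensities are signals that the authors made with Microarray Suite 5.0 from perfect match and mismatch probes, 1 array at a time and scaled to a common mean; the authors' run records were read for chip lot, scan day and cell handling. Arrays give no counts, and their number limits the precision.

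Values under 1 were replaced by 1 before taking log2. Probe sets among the highest 54% of the signals of an array in at least 3 of 12 arrays were tested, without the 57 controls. Symbols came from the annotation of the array. limma 3.58.1 in R 4.3.3 was fitted with 1 mean per group (8 residual degrees of freedom) and eBayes moderation of the variances with a trend on mean intensity, contrasts were adjusted by Benjamini-Hochberg over 9745 probe sets, and errors after ± are standard errors unless named SD. Against the threshold, a fold is the mean log2 signal of the brighter group over that of the dimmer one with each array's signal raised to its threshold. Signals of the brighter group are not raised, and the fold makes no allowance for the spread between cultures. The rule for naming genes took every member, and up to 5 genes of each list with the smallest adjusted p among those called. Members and lists were chosen with earlier results of these data known.

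The pairing of cultures comes from the sample numbers, the study's methods and the run records. Deviations from the group means correlated at 0.38 to 0.43 within experiments of normal cells and at 0.56, 0.04 and 0.42 in those of tumor cells. Between different experiments they correlated at -0.28 to -0.16 in normal and -0.54 to 0.28 in tumor cells. The arginine-deficient culture of tumor experiment 2 was closer to the arginine-sufficient culture of experiment 3 (0.28) than to its partner (0.04). These values thus do not bear out that pair, which the tumor results with the block use. For the arginine contrasts the block of experiments leaves 4 residual degrees of freedom. The methods call the 3 experiments of a line independent, and p-values measure the spread between these cultures. Python 3.11.15, pandas 2.3.3, numpy 2.4.6 and matplotlib 3.10.9 were used. Some genes are left out of what is reported here.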

Additional observations from a re-analysis of the deposited data

How the results depend on the processing

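Counts are of called members among the 8 tested, or 9 with no filter and 6 with the highest 40% filter, which left Mvd and Pmvk out. In normal cells the count of 2 became 1 with no filter, with the highest 40% filter and with no intensity trend, 5 with the experiment as a replicate block, 4 with scan day as a block, 3 with signals raised to the threshold and 0 in the 6 arrays of that line alone, and it ranged from 0 to 3 when 1 array was left out. In tumor cells the count of 0 became 1 with the replicate block, and 0 to 1 when 1 array was left out. The 3 calls of the mean effect became 5 with the replicate block and with scan day as a block, 4 with chip lot as a block, and 1 to 4 when 1 array was left out. Without both arrays of tumor experiment 2, a setting chosen after the data had been seen, 0 were called in normal cells and 1 in the mean effect. The difference between responses stayed at 0 calls in every setting run. The 5 calls with arginine ranged from 3 to 5, and the 4 without arginine from 2 to 4, when 1 array was left out, and the count without arginine became 1 with signals raised to the threshold. With arginine, 0 instead of 1 were called higher with no filter and without tumor experiment 2, and 4 stayed lower. Without arginine, 1 instead of 2 was called lower without tumor experiment 2, and 1 instead of 2 higher with the highest 40% filter. The 2-fold rule was met by 0 members instead of 1 in tumor cells with signals raised to the threshold or 9 of 9 ratios asked for, and by 1 instead of 5 in normal cells with 9 of 9 ratios; leaving out an array kept it at 1 and at 5. For the counts between cell lines the experiment was fitted as a random effect (8 residual degrees of freedom), not as a fixed block. These counts were the same as without it, at 5 with and 4 without arginine. The cause of these changes was not tested, except that fewer arrays give fewer degrees of freedom. Over all tested probe sets, 16 were called in normal cells, 186 in tumor cells and 288 in the mean effect, against 235, 1069 and 1430 with the replicate block, 9, 115 and 189 with no filter, and 3, 10 and 47 without tumor experiment 2. In normal cells alone 0 were called, with scan day as a block 39 and with no intensity trend 9. For the difference between responses 0 were called, against 5 with the replicate block, 3 with signals raised to the threshold and 1 with the highest 40% filter. When 1 array was left out, 3 to 49, 25 to 200 and 114 to 505 were called in the first 3 contrasts.

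Signs turned only for values whose 95% interval held 0. For Mvk 1368232_at in tumor cells the change was 0.022 with quantile normalization and 0.0047 with median centring (-0.13 to 0.0011 without 1 array). Fdps between lines without arginine was 0.076 with median centring, 0.011 without tumor experiment 2, and -0.28 to 0.24 without 1 array. The difference in response of Pmvk was -0.036 without tumor experiment 2 and -0.059 to 0.34 without 1 array. Without 1 array, that of Idi1 1388872_at was -0.061 to 0.88, Fdps in tumor cells -0.27 to 0.26, Mvd in tumor cells -0.035 to 0.96, and Mvk 1368232_at between lines with arginine -0.35 to 0.063. Over all settings and members, single values kept direction and side of the threshold 981 times, lost the call 56 times, gained it 20 times and changed sign 19 times.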
